A study of Mus musculus with 4 samples.

Results

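Matrix metalloproteinases (MMPs), the ADAMTS proteases and their tissue inhibitors (TIMPs) were examined in a pair of mouse stromal cell lines on Affymetrix mouse expression arrays. The members were all genes with a numbered Mmp, Adamts or Timp symbol, taken only from probe sets, the groups of short probes that read 1 transcript, annotated to that gene alone. This gave 37 genes on 70 probe sets, namely 18 MMP genes, 15 ADAMTS genes and 4 TIMP genes, out of 18193 genes on 45037 probe sets tested. The reference gene table held 46 such symbols, and the other 9 (Adamts2, Adamts13, Adamts14, Adamts17, Mmp15, Mmp21, Mmp25, Mmp27 and Mmp28) were not analysed here. The array data compared OP9M2 with BFC012, stromal lines that the study used in co-culture with human blood stem and progenitor cells. On OP9M2, cells with the surface markers of undifferentiated blood cells expanded, whereas transplantable stem cells were kept in number without significant expansion. On BFC012 the cells with these surface markers were lost or decreased within 2 weeks. OP9M2 is a clonal subline derived from OP9 stroma and is labelled a mesenchymal stem cell line, and BFC012 is labelled a fibroblast line and comes from mouse fetal liver. Cells of both lines had received 2000 rad, were then seeded at a density of 25000 per cm2, and gave RNA 48 h later. OP9M2 had been grown with 20% and BFC012 with 10% fetal bovine serum, so that the line and the serum cannot be told apart. Each line had 2 arrays, labelled biological replicates, with no word on separate cultures, so the p-values measure the spread between these samples, which may be technical. No hematopoietic cells were part of these samples.

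MMPs are zinc-dependent endopeptidases that are made as inactive precursors and cut collagens, gelatin, laminins and many other proteins at and around the cell surface. ADAMTS proteases are secreted relatives with thrombospondin repeats, which cut proteoglycans such as aggrecan and versican or process procollagens. TIMPs bind the active sites of these enzymes, and in bone marrow and other stroma the balance of protease and inhibitor shapes the matrix and frees growth factors held in it.

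In OP9M2 the gelatinase gene Mmp2 was higher, and in BFC012 the stromelysin genes Mmp3 and Mmp10, the collagenase gene Mmp13 and the ADAMTS genes Adamts3, Adamts6 and Adamts9 were higher. Values are given on the log2 scale, where 1 unit is a 2-fold step, and the probe set of a gene with the greatest mean level stands for that gene. A difference is OP9M2 minus BFC012 with its standard error (SE, n = 2 arrays a line), and it was called where the Benjamini-Hochberg adjusted p of limma over all 45037 probe sets was under 0.05 and the size at least 1. The background level, 6.09, is the 95th percentile of 81 probe sets of odorant, vomeronasal and trace amine receptors, genes not thought to be used in stroma. Where every array of the lower line lay below that level, the fold is given as a lower bound. Among the 37 genes 1 was called higher in OP9M2, or 2.70%, beside 2.36% of all genes, and 6 were called lower, or 16.2%, beside 3.56% of all genes. By probe set, 2 of 70 were called higher, beside 1.8% of all probe sets, and 10 of 70 lower, beside 2.66% of all. The median difference was -0.04 over the members and 0.03 over all genes, and 14 members, or 37.8%, had an unadjusted limma p under 0.05, beside 23.3% of all genes. Above background on both arrays of at least 1 line were 25 members, of which 14 were above it on all 4 arrays. These calls need both BFC012 arrays: without BFC012 replicate 1 no probe set of the whole array was called, the 7 genes kept their signs, and their adjusted p in limma ran from 0.0826 to 0.184. Without BFC012 replicate 2 again no probe set was called, and their adjusted p ran from 0.0903 to 0.237. In both of these fits the lone BFC012 array was taken to vary like the OP9M2 pair. With the replicate number as a block the calls of Mmp10, Mmp13 and Adamts6 were lost, at limma adjusted p of 0.0608, 0.0866 and 0.0894.

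**Figure D1:**
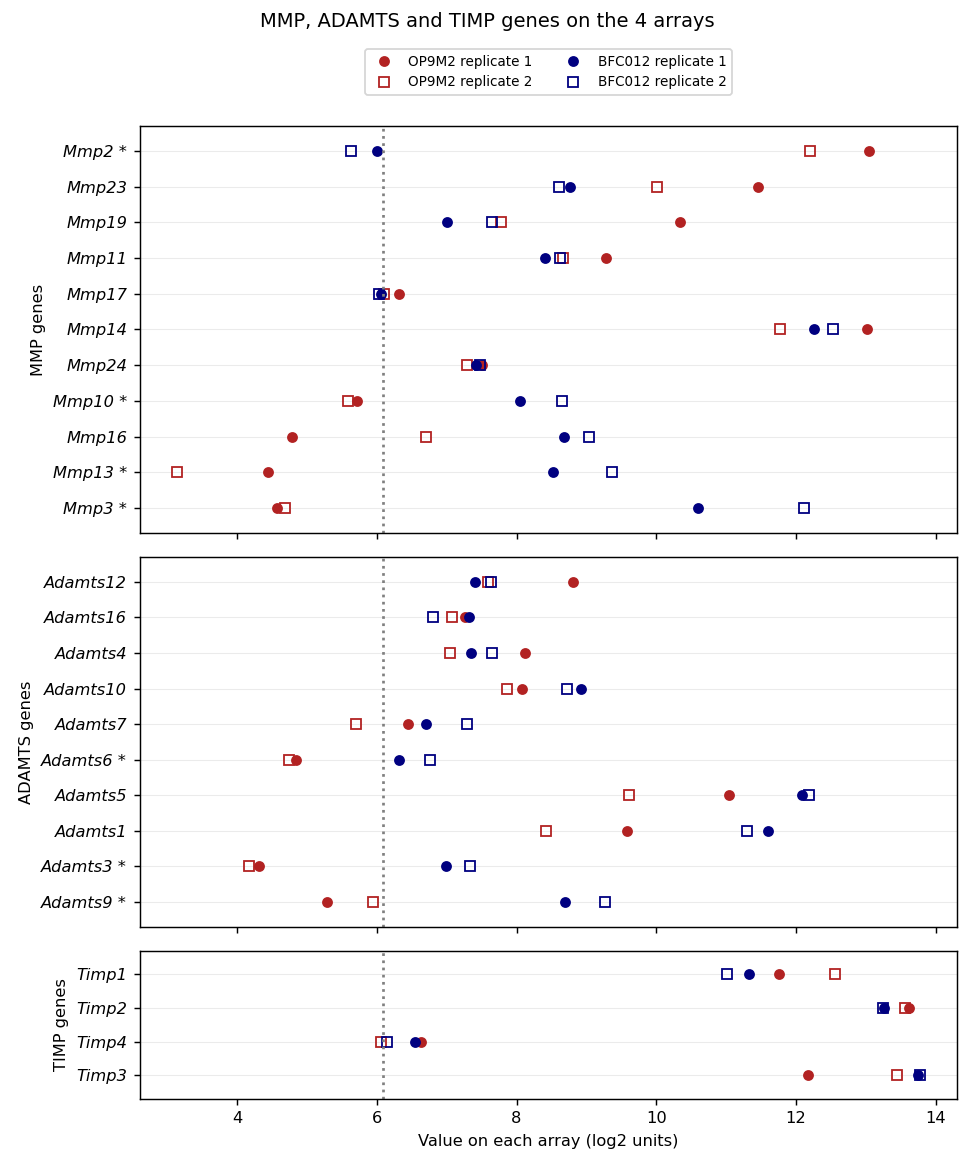
Values of the 25 members above background on both arrays of at least 1 line, with 1 point an array (x axis, log2 units; red OP9M2, blue BFC012) and the background level of 6.09 as a dotted line. Genes marked * were called, and for these 7 the arrays of one line all lie above those of the other, with the lower line below the dotted line.

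Mmp2 encodes gelatinase A, which cuts denatured collagen and the type IV collagen of basement membranes. It read 13.05 and 12.20 on the OP9M2 arrays and 6.00 and 5.63 on the BFC012 arrays. Both BFC012 arrays lay below background, and the lines were 6.81 ± 0.33 (SE) apart, at least 92.6-fold higher in OP9M2 (limma adjusted p = 0.00278). A separate Mmp2 probe set read 12.99, 11.90, 5.94 and 5.74 on the same arrays, at least 81.8-fold higher in OP9M2 (limma adjusted p = 0.00403). Mmp9, gelatinase B, was below background on all 4 arrays, between 5.90 and 6.02, so that of the pair of gelatinases only Mmp2 was detected, and in OP9M2 alone.

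The stromelysin and collagenase genes that were called lie together on chromosome 9, in a group whose reference order is Mmp13, Mmp12, Mmp1b, Mmp3, Mmp1a, Mmp10, Mmp8, Mmp27, Mmp20 and Mmp7, with 3 other genes in between. Of these 10 genes 9 were measured, and in BFC012 Mmp13, Mmp3 and Mmp10 were above background on both arrays while the genes lying between them were not. The promoter sequences of these 3 genes are shown because they moved together, beside Mmp1a, a neighbour with the same motifs that stayed below background, and Mmp8, a neighbour without them. Each stretch holds the 120 bases before the annotated start, 5′ to 3′ on the plus strand of GRCm38.p6 as given by RefSeq, at chr9:7445702-7445821 for Mmp3, chr9:7502222-7502341 for Mmp10, chr9:7272394-7272513 for Mmp13, chr9:7464021-7464140 for Mmp1a and chr9:7558309-7558428 for Mmp8. Capitals mark the letters TGANTCA, where N is any base, and TATAAA, the letters of the TATA box. TGANTCA is a looser form of the motif bound by AP-1 (Fos and Jun dimers), which has C or G at N.
Mmp3: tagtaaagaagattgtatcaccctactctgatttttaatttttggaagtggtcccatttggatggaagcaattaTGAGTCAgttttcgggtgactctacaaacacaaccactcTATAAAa
Mmp10: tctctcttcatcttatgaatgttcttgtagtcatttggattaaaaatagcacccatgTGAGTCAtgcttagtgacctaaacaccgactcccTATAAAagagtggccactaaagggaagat
Mmp13: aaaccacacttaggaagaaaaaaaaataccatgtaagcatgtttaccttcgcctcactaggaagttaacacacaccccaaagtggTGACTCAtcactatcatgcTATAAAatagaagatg
Mmp1a: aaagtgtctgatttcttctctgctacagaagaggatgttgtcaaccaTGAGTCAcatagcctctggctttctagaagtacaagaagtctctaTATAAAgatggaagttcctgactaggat
Mmp8: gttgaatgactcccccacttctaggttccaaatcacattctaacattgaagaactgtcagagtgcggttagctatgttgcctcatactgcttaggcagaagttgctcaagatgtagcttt

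Within 250 bases before the start and on either strand, TGANTCA stood in 8 of the 9 measured genes of the chromosome 9 group, Mmp8 being the exception, and in 0 of the 14 other members with a promoter in the reference table. With any base at N, it stood in 6.75% of all 32851 promoters of the table. Its first base lay 46 bases before the annotated start in Mmp3, 63 in Mmp10, 35 in Mmp13 and 73 in Mmp1a. That of TATAAA lay 7, 29, 16 and 28 bases before it, in the same order of genes. Whether the annotated starts are those used in these lines was not tested. TATAAA was found in 7 genes of the group and in Adamts1, against 12.4% of all promoters, and GGGCGG, the GC box, in 0 genes of the group and in 11 other members, against 32.7% of all promoters. None of these 3 motifs overlaps another in the stretches shown, and a match is a description of the letters, not of a bound site. Mmp12, Mmp1a, Mmp1b, Mmp20 and Mmp7, which were not above background on both arrays of either line, carry TGANTCA too. In Mmp20 the letters are TGAATCA, with A at N, and in the other genes of the group with a match N is C or G. No promoter was found in the table for Mmp2.

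Mmp3 encodes stromelysin 1, which cuts many matrix proteins and activates the precursors of other MMPs. It read 4.57 and 4.69 in OP9M2 and 10.60 and 12.11 in BFC012. The BFC012 arrays were 1.51 apart, yet far above both OP9M2 arrays, and the difference was -6.73 ± 0.52, at least 38.4-fold lower in OP9M2 (limma adjusted p = 0.00799). Mmp10, stromelysin 2, with a similar range of substrates, read 5.72 and 5.59 in OP9M2 and 8.05 and 8.65 in BFC012, without overlap. Its difference was -2.69 ± 0.24, at least 4.78-fold lower in OP9M2 (limma adjusted p = 0.0113). Mmp13, a collagenase that cuts fibrillar collagens, read 4.44 and 3.14 in OP9M2 and 8.52 and 9.37 in BFC012. Here too both OP9M2 arrays were below background, and the difference was -5.16 ± 0.53, at least 7.22-fold lower in OP9M2 (limma adjusted p = 0.0165). Mmp11, stromelysin 3, which is not part of the chromosome 9 group and is activated inside the cell by furin, read 9.28 and 8.66 in OP9M2 and 8.41 and 8.62 in BFC012. Its lines were 0.46 ± 0.25 apart and the difference was not called (limma adjusted p = 0.435).

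The remaining genes of the chromosome 9 group were at or below background. The collagenase genes Mmp1a, Mmp1b and Mmp8 ranged from 2.75 to 5.07 over the 4 arrays, Mmp12 (macrophage elastase) from 3.20 to 3.64 and Mmp20 (enamelysin, of developing teeth) from 4.05 to 4.49. Mmp7 (matrilysin) ranged from 6.03 to 6.17 and passed the background level on 1 BFC012 array. None of these 6 was called.

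**Figure D2:**
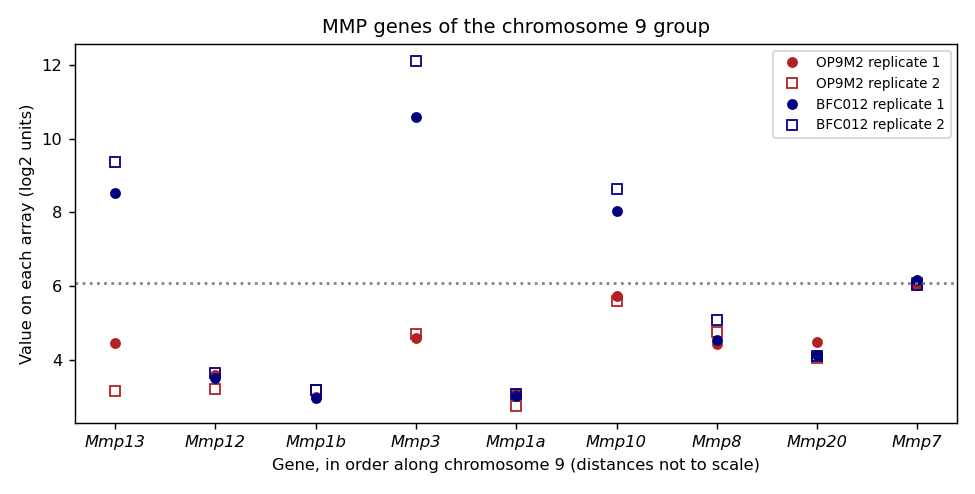
Values of the 9 measured MMP genes of chromosome 9, in gene order along the x axis without scale, on each array (y axis, log2 units; red OP9M2, blue BFC012), with the background level as a dotted line. Mmp13, Mmp3 and Mmp10 stand above the line in BFC012 only, and Mmp12, Mmp1b and Mmp1a, which lie between them, are below it in both lines.

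The membrane-type MMPs, which are fixed to the cell surface, had no called gene by representative probe set. Mmp14, the main activator of the Mmp2 precursor, read 13.02 and 11.77 in OP9M2 and 12.26 and 12.53 in BFC012. The lines overlapped, with a difference of 0.01 ± 0.44 (limma adjusted p = 0.999), and its other probe sets differed by -0.36 and 0.13. So Mmp2 and Mmp14 were both detected in OP9M2, and in BFC012 Mmp14 was detected without Mmp2. Mmp16, a second membrane-type enzyme that can activate the Mmp2 precursor, read 4.78 and 6.70 in OP9M2 and 8.68 and 9.04 in BFC012. Only 1 of the 2 OP9M2 arrays was above background, and with a gap of 1.92 between them the difference of -3.12 ± 0.66 was not called (limma adjusted p = 0.0901). A separate Mmp16 probe set read 5.79, 6.36, 7.74 and 8.21 and was called at -1.90 ± 0.28 (limma adjusted p = 0.0393), and the remaining probe sets, at -2.10 and -1.07, were not. Mmp17, held by a lipid anchor, stayed near background at 6.32, 6.10, 6.07 and 6.03, and Mmp24, known from neurons, read 7.51, 7.29, 7.42 and 7.47. For both genes the lines lay close together, with differences of 0.17 and -0.04.

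Among the other MMPs, Mmp23, a short transmembrane form, read 11.46 and 10.01 in OP9M2 and 8.77 and 8.60 in BFC012. Both OP9M2 arrays were above both BFC012 arrays, but with 1.45 between the OP9M2 arrays the difference of 2.05 ± 0.50 was not called (limma adjusted p = 0.120). Its other probe set gave 1.92 ± 0.43 (limma adjusted p = 0.102). Mmp19, which cuts basement membrane proteins, read 10.34 and 7.78 in OP9M2 and 7.01 and 7.65 in BFC012. The difference of 1.73 ± 0.89 came with a gap of 2.56 between the OP9M2 arrays, the widest among the 37 genes, and was not called (limma adjusted p = 0.399).

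**Figure D3:**
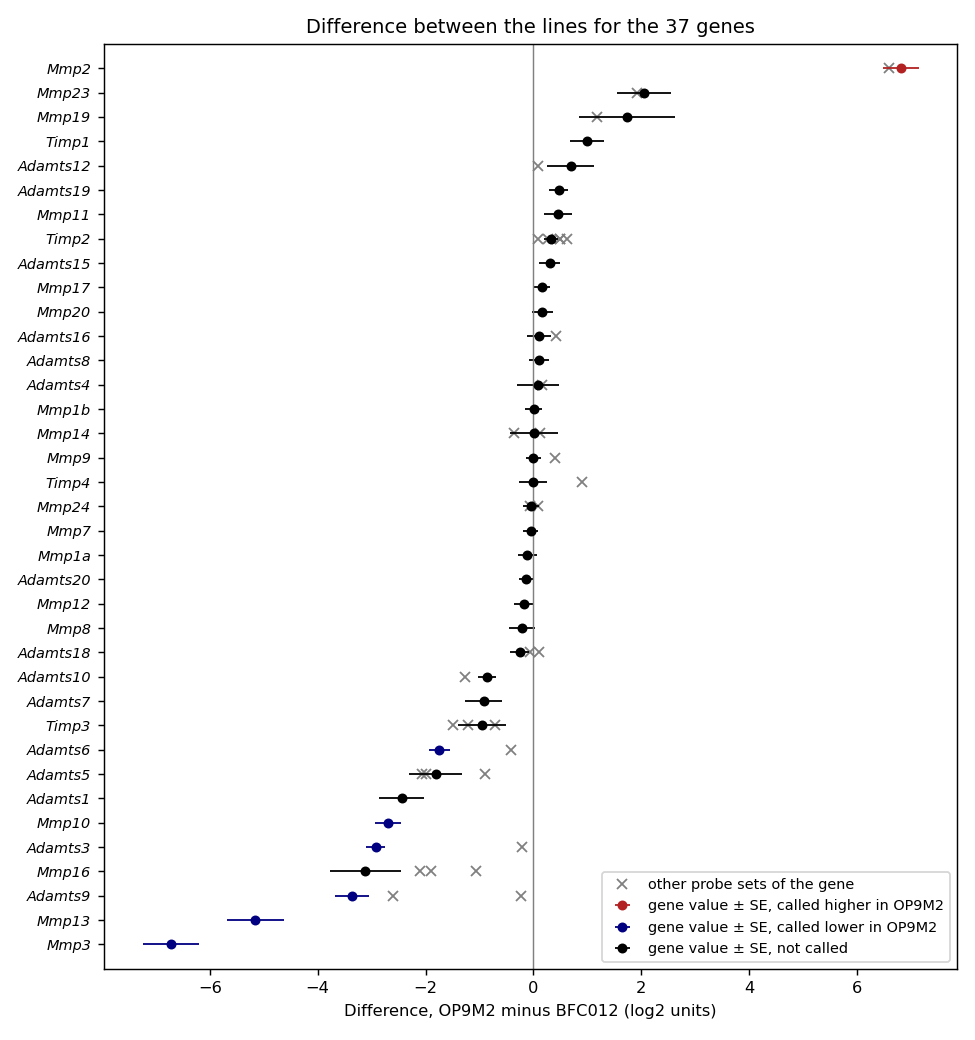
Difference between the lines for each of the 37 genes (x axis, OP9M2 minus BFC012, log2 units; point with SE, n = 2 arrays a line), in order of size, with other probe sets of the gene as crosses. Mmp2 stands apart at 6.81, the 6 genes called lower run from -6.73 to -1.74, and the second probe sets of Adamts3 and Adamts6 sit near 0.

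Of the 15 ADAMTS genes 3 were called lower in OP9M2, beside 3.56% of all genes, and 0 higher, beside 2.36% of all genes. Adamts9, which cuts versican and aggrecan, read 5.28 and 5.95 in OP9M2 and 8.69 and 9.27 in BFC012. Both OP9M2 arrays were below background, and the difference was -3.36 ± 0.32, at least 7.39-fold lower in OP9M2 (limma adjusted p = 0.0134). A separate Adamts9 probe set was called as well, at -2.61 ± 0.17 (limma adjusted p = 0.00543), and the last one, near background on all arrays, differed by -0.23. Adamts3, which removes the amino-terminal propeptide of procollagens, read 4.31 and 4.17 in OP9M2 and 7.00 and 7.33 in BFC012. It was at least 2.10-fold lower in OP9M2, with a difference of -2.93 ± 0.18 (limma adjusted p = 0.00426), while its other probe set, below background on all arrays, differed by -0.22. Adamts6, a protease of the fibrillin microfibril, read 4.85 and 4.74 in OP9M2 and 6.31 and 6.77 in BFC012. Its BFC012 arrays were close to background, and the difference of -1.74 ± 0.20 puts it at least 1.36-fold lower in OP9M2 (limma adjusted p = 0.0217). The second Adamts6 probe set, below background throughout, differed by -0.41.

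The proteoglycan-cleaving genes Adamts1 and Adamts5 were detected in both lines. Adamts5, a main aggrecanase of cartilage, read 11.05 and 9.60 in OP9M2 and 12.08 and 12.19 in BFC012, without overlap. The OP9M2 arrays were 1.44 apart and the difference of -1.81 ± 0.50 was not called (limma adjusted p = 0.150). Of its other probe sets, 1 read 9.06, 8.50, 10.75 and 10.93 and was called 4.18-fold lower in OP9M2, at -2.06 ± 0.23 (limma adjusted p = 0.0207), and another, at -1.99 ± 0.61, was not (limma adjusted p = 0.183). The last, below background, differed by -0.89. Adamts1, known from ovulation and vessel growth, read 9.58 and 8.42 in OP9M2 and 11.59 and 11.30 in BFC012. The lines did not overlap and differed 5.44-fold, but the difference of -2.44 ± 0.42 missed the threshold (limma adjusted p = 0.0557). Adamts1 passed it when only probe sets above background on at least 2 arrays were fitted (limma adjusted p = 0.0375). Adamts4, the other main aggrecanase, read 8.12 and 7.05 in OP9M2 and 7.35 and 7.65 in BFC012, with overlap and a difference of 0.09 ± 0.39. Adamts8, Adamts15 and Adamts20, of the same class, were below background on all 4 arrays.

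Adamts10, which like Adamts6 acts on fibrillin microfibrils, read 8.07 and 7.86 in OP9M2 and 8.93 and 8.72 in BFC012. The difference of -0.86 ± 0.16 was not called (limma adjusted p = 0.0678), whereas a second probe set, at 5.91, 6.05, 7.43 and 7.08, was called at least 2.24-fold lower in OP9M2 (limma adjusted p = 0.0362). The mean of both probe sets, fitted as 1 row, was called at -1.07 (limma adjusted p = 0.0273). Adamts7 and Adamts12 cut the cartilage oligomeric matrix protein. Adamts7 read 6.45 and 5.70 in OP9M2 and 6.70 and 7.29 in BFC012, a difference of -0.92 ± 0.34. Adamts12 read 8.81 and 7.60 in OP9M2 and 7.40 and 7.63 in BFC012, a difference of 0.69 ± 0.43. Neither was called, at limma adjusted p of 0.252 and 0.489, and for Adamts12 the lines overlapped. Adamts16 read 7.26, 7.08, 7.32 and 6.81, with overlap, and Adamts18 and Adamts19 were below background on all arrays.

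None of the 4 TIMP genes was called. Timp1, a secreted inhibitor of most MMPs, read 11.75 and 12.55 in OP9M2 and 11.32 and 11.01 in BFC012. Both OP9M2 arrays were higher, by 0.99 ± 0.31 on average, or 1.98-fold (limma adjusted p = 0.196). Timp2, which besides inhibiting MMPs bridges Mmp14 to the Mmp2 precursor, read 13.62 and 13.56 in OP9M2 and 13.26 and 13.25 in BFC012. The lines did not overlap, with a difference of 0.33 ± 0.13 (limma adjusted p = 0.272), and its 6 probe sets gave differences from 0.09 to 0.62. The probe set at 0.62 was below background on all 4 arrays, and the others reached at most 0.49. Timp3, which binds to the matrix and also inhibits ADAMTS proteases, read 12.18 and 13.45 in OP9M2 and 13.75 and 13.78 in BFC012. OP9M2 replicate 1 was the low one, and the difference of -0.95 ± 0.44 was not called (limma adjusted p = 0.352). The other Timp3 probe sets differed by -1.50, -1.21 and -0.72, each lowest on OP9M2 replicate 1. Timp4 was near background at 6.63, 6.06, 6.55 and 6.14. Timp1, Timp2 and Timp3 were thus above background on all arrays of both lines.

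Several members read differently on the 2 OP9M2 arrays. A gap of at least 1 was seen between the OP9M2 arrays in 10 of 37 members, or 27.0%, beside 7.40% of all genes, and between the BFC012 arrays in 1 member, Mmp3, or 2.70%, beside 0.566% of all genes. Of the 10, Mmp13, Mmp14, Mmp19, Mmp23, Adamts1, Adamts4, Adamts5 and Adamts12 were higher on OP9M2 replicate 1, and Mmp16 and Timp3 were higher on OP9M2 replicate 2. Mmp13 was below background on both arrays. The 5 adipocyte markers measured were all higher on OP9M2 replicate 1, to unlike degrees. Adipoq read 12.84 and 5.41, Cebpa 12.69 and 8.92 and Lpl 13.88 and 12.02 on the OP9M2 arrays. Pparg, at 11.67 and 11.11, and Fabp4, at 13.69 and 13.09, differed by less than 1. Pparg, Fabp4 and Lpl were called higher in OP9M2. The log2 values of the 5 markers added up to 64.8 and 50.6, against 28.5 and 27.1 in BFC012. OP9M2 replicate 2 also stood apart in the poly-A controls, RNAs added before labelling, at a mean of 3.84 over 12 probe sets against 6.20 to 7.64 on the other arrays. The part of either in the members' values was not tested. With OP9M2 replicate 2 left out, Adamts1 (-1.86), Adamts5 (-1.09), Adamts12 (1.30), Mmp16 (-4.08), Mmp19 (3.01), Mmp23 (2.77) and Timp3 (-1.59) were called as well, at limma adjusted p from 0.00222 to 0.0250. With OP9M2 replicate 1 left out, Adamts1 (-3.03), Adamts5 (-2.54), Mmp16 (-2.16), Mmp23 (1.32) and Timp1 (1.39) were called as well, at limma adjusted p from 0.00450 to 0.0315. The 7 genes called from all arrays stayed called in both cases, and the lone OP9M2 array was taken to vary like the BFC012 pair.

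**Figure D4:**
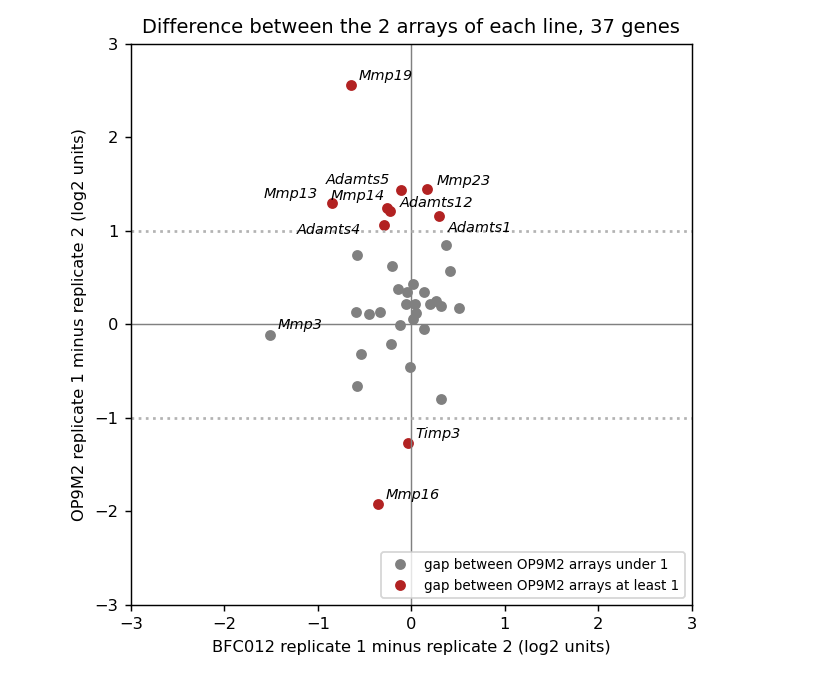
Difference between the 2 arrays of OP9M2 (y axis) and of BFC012 (x axis) for the 37 genes, both as replicate 1 minus replicate 2 in log2 units, with dotted lines at 1 and -1. The 10 red genes lie beyond the dotted lines, from Mmp16 at -1.92 to Mmp19 at 2.56, while along the x axis only Mmp3, at -1.51, is that far from 0.

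Related genes were read from lists of other proteases, inhibitors, substrates and transcription factors. Over 84 measured genes of these lists 4 were called higher in OP9M2, or 4.76%, beside 2.36% of all genes, and 9 lower, or 10.7%, beside 3.56% of all genes. Of 13 further inhibitors, activators and clearance receptors 1 was called, Pcsk6, a proprotein convertase, at -2.02 ± 0.23 (limma adjusted p = 0.0208). Reck, a membrane-bound MMP inhibitor, differed by 0.94 ± 0.36 and Furin, which activates membrane-type MMPs and ADAMTS precursors, by 0.54 ± 0.28, and neither was called (limma adjusted p = 0.266 and 0.394). Of 6 ADAMTS-like proteins, which lack the protease domain, Adamtsl3 was called, at least 13.0-fold lower in OP9M2 (limma adjusted p = 0.00259). None of 7 plasminogen system genes was called, and Plau, the urokinase that starts plasmin-driven activation of MMPs, read 8.11 and 7.19 in OP9M2 against 5.97 and 6.02 in BFC012 (limma adjusted p = 0.0787).

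Other protease families had members called in both directions. Of 11 ADAM proteases Adam8 was higher in OP9M2 by 3.13 ± 0.27, with the BFC012 arrays at background, 1 just above and 1 just below it, and Adam22, which has no catalytic activity, was at least 6.00-fold lower. Of 10 cathepsins and cystatins the lysosomal Ctsz and Ctsh were 9.80-fold and 8.87-fold higher in OP9M2, and none was lower. Of 7 genes of the astacin group Bmp1, which removes the carboxy-terminal propeptide of procollagens, was 3.40-fold lower. Among 8 other pericellular enzymes Mme, the peptidase neprilysin, was at least 31.3-fold higher in OP9M2, while Htra1 and Hpse, the heparan sulfate-cleaving heparanase, were 9.30-fold and at least 2.75-fold lower. The limma adjusted p of these 8 genes ran from 0.00112 to 0.0253.

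Of 10 ADAMTS substrates 2 were called. Dcn (decorin) was at least 67.3-fold lower in OP9M2 (limma adjusted p = 0.00355) and Thbs1 (thrombospondin 1) 68.8-fold lower (limma adjusted p = 0.00759). Acan (aggrecan) was below background on all 4 arrays, from 4.92 to 5.27, and Vcan (versican) read 12.91 and 11.25 in OP9M2 and 10.56 and 10.97 in BFC012, without a call (limma adjusted p = 0.330). Among 12 AP-1, ETS and RUNX factors, which bind in promoters of MMP genes, the median difference was -0.67 beside 0.03 over all genes, and 1 was called, Ets2, 5.01-fold lower in OP9M2 (limma adjusted p = 0.00388). The 7 Fos and Jun genes of the list, set apart after their values were seen because their products bind the AP-1 motif, differed in both directions. Fos (-2.56), Junb (-2.09), Fosb (-1.85), Jund (-0.57) and Fosl2 (-0.21) had negative differences and Fosl1 (1.17) and Jun (0.31) positive ones, and none of the 7 was called (limma adjusted p from 0.0809 to 0.736).

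The lines were checked against marker lists. Of 10 mesenchymal markers 8 were above background on both OP9M2 arrays and 7 on both BFC012 arrays, whereas Thy1 and Lum were below it on all 4. The 7 in BFC012 were Vim, Col1a1, Col3a1, Pdgfra, Pdgfrb, Fn1 and S100a4, with Col1a1 at 13.06 and 13.12 against 12.78 and 12.14 in OP9M2. Col1a2, the other chain of type I collagen, was near background in BFC012, at 6.18 and 6.07 against 14.25 and 14.14 in OP9M2. All 6 mesothelial markers were above background on both BFC012 arrays and 1 of 6 on both OP9M2 arrays, and 5 were called lower in OP9M2. Their log2 values added up to 61.4 and 63.2 in BFC012 against 29.0 and 31.4 in OP9M2. Of 5 epithelial markers Cdh1 was called lower in OP9M2 and none higher. On both arrays of the line, 4 of the 5 were above background in BFC012 and 2 in OP9M2. Epcam differed the other way, by 0.94, and was not called. No blood, macrophage, endothelial or hepatocyte marker was called, and 4 of 5 blood markers were on no array above background. The same held for 3 of 6 macrophage, 4 of 6 endothelial and 4 of 5 hepatocyte markers. Cd3e, Csf1r, Kdr and Ttr were above background on all 4 arrays. In bulk RNA, fewer cells with a transcript and less of it per cell cannot be told apart, and the part of these cell states in the members' values was not tested. Array medians of the deposited values ran from 431 to 451, and over all probe sets r was 0.980 for the OP9M2 pair, 0.994 for the BFC012 pair and 0.941 to 0.954 between the lines. With 2 arrays against 2, an exact permutation test of any single gene cannot go below a two-sided p of 0.333, so calls rest on the spread that limma borrows over all probe sets.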

How the data were processed

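Total RNA of OP9M2 and BFC012 cells was hybridized to 4 Affymetrix mouse arrays, 2 a line. The deposited values are intensities that the authors summarized per probe set with RMA and the affy package, per the submitters' processing notes. Their largest value, 2.96e+06, lies far above the scanner maximum of 65535, and their natural log runs from 2.06 to 14.9, so the natural log of each deposited intensity was read as the RMA log2 value. The base is not stated, and all differences and folds rest on this reading. The study's methods name limma. They give a false discovery rate of 5% and a 2-fold minimum for its human arrays only, and these limits were taken over here.

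The 64 control probe sets were left out of the fit. All others were fitted with lmFit and eBayes (R 4.3.3, limma 3.58.1; 2 residual and 2.50 prior degrees of freedom), without a replicate block, since the labels do not tie the numbers of the lines together. Probe sets with 1 gene numbered 34945, with several 932 and with none 9160. A bound on a fold sets the brighter line's mean against the background level, or the dim probe set where that is higher. The number of arrays limits the precision. The members and lists were chosen with earlier results of these data known. Named with values were members with any called probe set, all TIMPs, members above background on both arrays of a line, called genes of the related lists, and Reck, Furin, Plau, Acan and Vcan. Alternatives were log2 of the deposited values, a filter on low values, renewed quantile normalization, a trended and robust prior, the replicate block, each array left out, no minimum difference, the mean of a gene's probe sets, the 99th percentile as background and, chosen after seeing the data, a crossed block. The scripts were tested on simulated data. Promoters came from a RefSeq table on GRCm38.p6, matched by symbol for 23 of 37 members.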

Additional observations from a re-analysis of the deposited data

How the results depend on the processing

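Called member genes numbered 7 from all arrays, and the same 7 were called with renewed quantile normalization and the crossed block. They were also called with log2 of the deposited values, which multiplies every value by the same factor. That leaves each limma p unchanged and widens each difference. These calls could therefore not be lost, and they do not test the reading of the base. The low-value filter and the trended, robust prior each added Adamts1, and the mean of a gene's probe sets added Adamts1 and Adamts10, for 8 genes called lower. With the replicate block the genes called lower fell to 3, the probe sets called lower to 5 and the related genes called higher to 2. The replicate numbers share only a number (correlation of the pair differences -0.103), and a crossed pairing, chosen after seeing the data, gave 7 called genes and 8 lower probe sets. With each array left out in turn, genes called higher ranged from 0 to 4, genes called lower from 0 to 10, probe sets called higher from 0 to 8, probe sets called lower from 0 to 19, related genes called higher from 0 to 13 and related genes called lower from 0 to 13. Each 0 came from leaving out a BFC012 array, where 10 and 9 member genes had an unadjusted limma p under 0.05. The 11 changes of sign were all in genes with a main difference of at most 0.11 in size. With each array left out, Mmp14 ranged from -0.62 to 0.63, with -0.62 without OP9M2 replicate 1 and -0.13 without BFC012 replicate 1, and the mean of its probe sets gave -0.077. Adamts4 ranged from -0.45 (without OP9M2 replicate 1) to 0.62, with -0.061 without BFC012 replicate 1, and Adamts16 from -0.14 (without BFC012 replicate 2) to 0.36. Mmp24 gave 0.0035 with quantile normalization and ranged from -0.15 to 0.064 (without OP9M2 replicate 2). Timp4 ranged from -0.29 to 0.28 (without OP9M2 replicate 2), with 0.20 without BFC012 replicate 1, and gave 0.45 as the mean of its probe sets. The cause was not tested. With the 99th percentile as background, 6.84, 21 rather than 25 members were above it in at least 1 line. Of the 7 called genes, Adamts6 was then above it on no array, with 6.31 and 6.77 in BFC012. With 2 arrays a line, a missed call does not show that the lines were alike.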
